A study of Mus musculus with 14 samples.

Results

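Cholesterol synthesis, transport and turnover genes were followed in mouse brain RNA. The set held 36 genes out of the 43346 listed in the count table, and its members were chosen by name from known roles in making, moving, storing and clearing cholesterol. All 36 had a row, and all 36 passed the filter on low counts in each comparison, which asked for over 1 CPM in every mouse of at least 1 group. Ch25h, under 1 CPM in all 4 NTG mice, passed against NTG mice only through the APP/PS1 groups, where it was high, while the other 35 were over 1 CPM in every mouse. Of these, 18 encode enzymes of synthesis, 5 control synthesis, 2 act in uptake and trafficking, 4 export sterol across the membrane, 2 esterify it, 2 are oxysterol receptors and 3 hydroxylate it.

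RNA sequencing was performed on brain tissue of 14 female mice, 23 months old, on the C57BL/6;SJL-Tg strain. The study tested CP2, a tricyclic pyrone that inhibits mitochondrial complex I, in APP/PS1 mice, a model of amyloid disease. The 4 NTG mice were non-transgenic (wild type) littermates on vehicle, which was drinking water with 0.1% PEG. The 5 APP/PS1 mice (genotype label APP/PS1 +/+, carrying familial APP and PS1 mutations) received the same vehicle, and the 5 CP2-treated APP/PS1 mice drank CP2 in the same vehicle from 9 months of age for 14 months, at a dose of 25 mg/kg/day. All 3 groups thus shared the PEG vehicle, and the promoters of the transgenes are not given in the sources used here. NTG mice given CP2 are not analysed here. The tissue was a cross-section that included hippocampus and cortex, so in bulk RNA fewer cells of a type and less RNA per cell cannot be told apart.

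Brain cholesterol is made within the brain, because lipoprotein cholesterol in the blood does not cross the blood-brain barrier in quantity. Acetyl-CoA is built into mevalonate and farnesyl diphosphate, then into squalene, which is closed to lanosterol and trimmed to cholesterol. SREBP-2 turns these enzymes on when membranes are low in sterol, whereas oxysterols activate the LXR receptors, which turn on exporters such as Abca1. Neurons clear surplus cholesterol as 24-hydroxycholesterol through Cyp46a1.

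Total counts per mouse ranged from 70548781 to 106235625, and the members' counts from 55 (Ch25h) to 32441 (Hmgcs1). APP/PS1 mouse 16 stood apart. The mean of striatum markers in this mouse was 3.60 above the NTG mean on the log2 scale, against -0.26 to 0.38 in the other 4 APP/PS1 mice, and the mean of hippocampus and cortex markers was 0.73 below it. It had the lowest value of its group for 28 of the 36 members, and for 16 of the 18 synthesis genes. Calls and counts that differed without it are given beside the results below. The share of counts on the ribosomal RNA-like genes Yam1 and AY036118 ran from 2.40% in this mouse to 7.50% in NTG mouse 8. Its part in the results was not tested, but calls with this share as a covariate are given with the other alternatives.

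Per unit of gene length, the members spanned a wide range of abundance. In NTG mice Hmgcs1, which makes HMG-CoA for the mevalonate pathway, had the highest level (58.2 ± 3.35 RPKM, SD, n = 4). Cyp46a1, the neuronal 24-hydroxylase, followed at 50.3 ± 6.20 RPKM and Srebf2, which encodes SREBP-2, at 35.5 ± 2.64 RPKM. Fdft1, Fdps and Insig1 came next and lay within their spread of each other, at 24.6 ± 0.507, 24.5 ± 1.61 and 24.4 ± 1.26 RPKM. Among the exporters Abcg1 was highest at 12.7 ± 0.647 RPKM and Abca7 lowest at 3.41 ± 0.504 RPKM. The lowest members were Nr1h3 (LXR alpha) at 1.16 ± 0.254 RPKM and Ch25h, cholesterol 25-hydroxylase, at 0.467 ± 0.0418 RPKM.

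**Figure D1:**
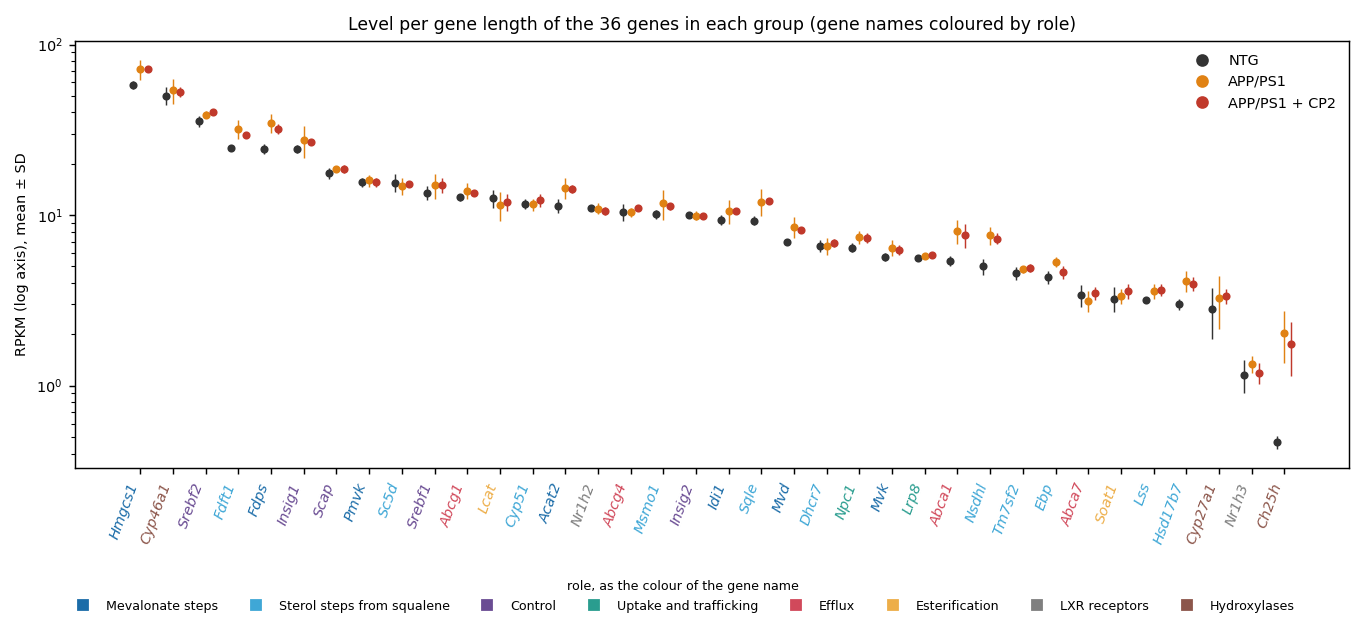
Level per gene length of the 36 genes (RPKM as the authors computed it, log axis), as mean ± SD of 4 NTG, 5 APP/PS1 and 5 CP2-treated APP/PS1 mice, in order of the NTG mean. Levels ran from 58.2 RPKM for Hmgcs1 to 0.467 RPKM for Ch25h in NTG mice, and gene names are coloured by role.

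Genes of synthesis, 1 exporter and 1 hydroxylase were higher in APP/PS1 than in NTG mice. With the edgeR quasi-likelihood test and Benjamini-Hochberg adjustment over all genes tested, 4 members rose in vehicle-treated APP/PS1 mice (Fdps, Nsdhl, Abca1 and Ch25h) and none fell. Over all 16417 genes tested in this comparison 4.34% rose and 1.34% fell (5.68% in all), against 11.1% of the members that rose. At an unadjusted p under 0.05, 10 members were higher and none lower, where 10.6% of all genes were higher and 8.05% lower (18.7% in all). The values of Fdps, Nsdhl, Hsd17b7, Abca1 and Ch25h did not overlap between the groups, and all 5 were higher in APP/PS1 mice, where 5.93% of all genes lay apart in that direction and 4.11% in the other. Without mouse 16, 10 members rose, where 6.62% of all genes did. In that fit 15 were higher at an unadjusted p under 0.05, and the share of all genes at this p was not computed. The 10 were the same 4 with Acat2, Hmgcs1, Mvd, Fdft1, Sqle and Hsd17b7 added.

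In CP2-treated APP/PS1 mice 9 members rose against the same NTG mice and none fell, where 4.56% of the 16416 genes tested rose and 1.46% fell (6.02% in all). These were Acat2, Hmgcs1, Fdps, Fdft1, Sqle, Nsdhl, Hsd17b7, Abca1 and Ch25h. At an unadjusted p under 0.05, 14 members were higher, where 11.6% of all genes were, and 1 (Nr1h2) was lower, where 8.59% were (20.2% in all). The values of the 9 and of Mvd and Npc1 lay wholly above the NTG range, which makes 11 members, where 6% of all genes did. This count rests in part on the pairwise fit: with all 3 groups in one fit, Fdps, Nsdhl, Abca1 and Ch25h passed, and Acat2, Hmgcs1, Fdft1, Sqle and Hsd17b7 did not (edgeR adjusted p = 0.0935, 0.0988, 0.131, 0.0975 and 0.0793). Of all genes, 4.28% passed in that fit in either direction, against 6.02% in the pairwise fit. For APP/PS1 against NTG mice the same fit called 6 members, with Fdft1 and Hsd17b7 added to the 4. There 7.9% of all genes passed, against 5.68% in the pairwise fit. Both comparisons use the same 4 NTG mice, so they are not independent of each other. Within APP/PS1 mice, no member differed between CP2 and vehicle after adjustment. The plot of log2 fold changes shows all 3 comparisons side by side.

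**Figure D2:**
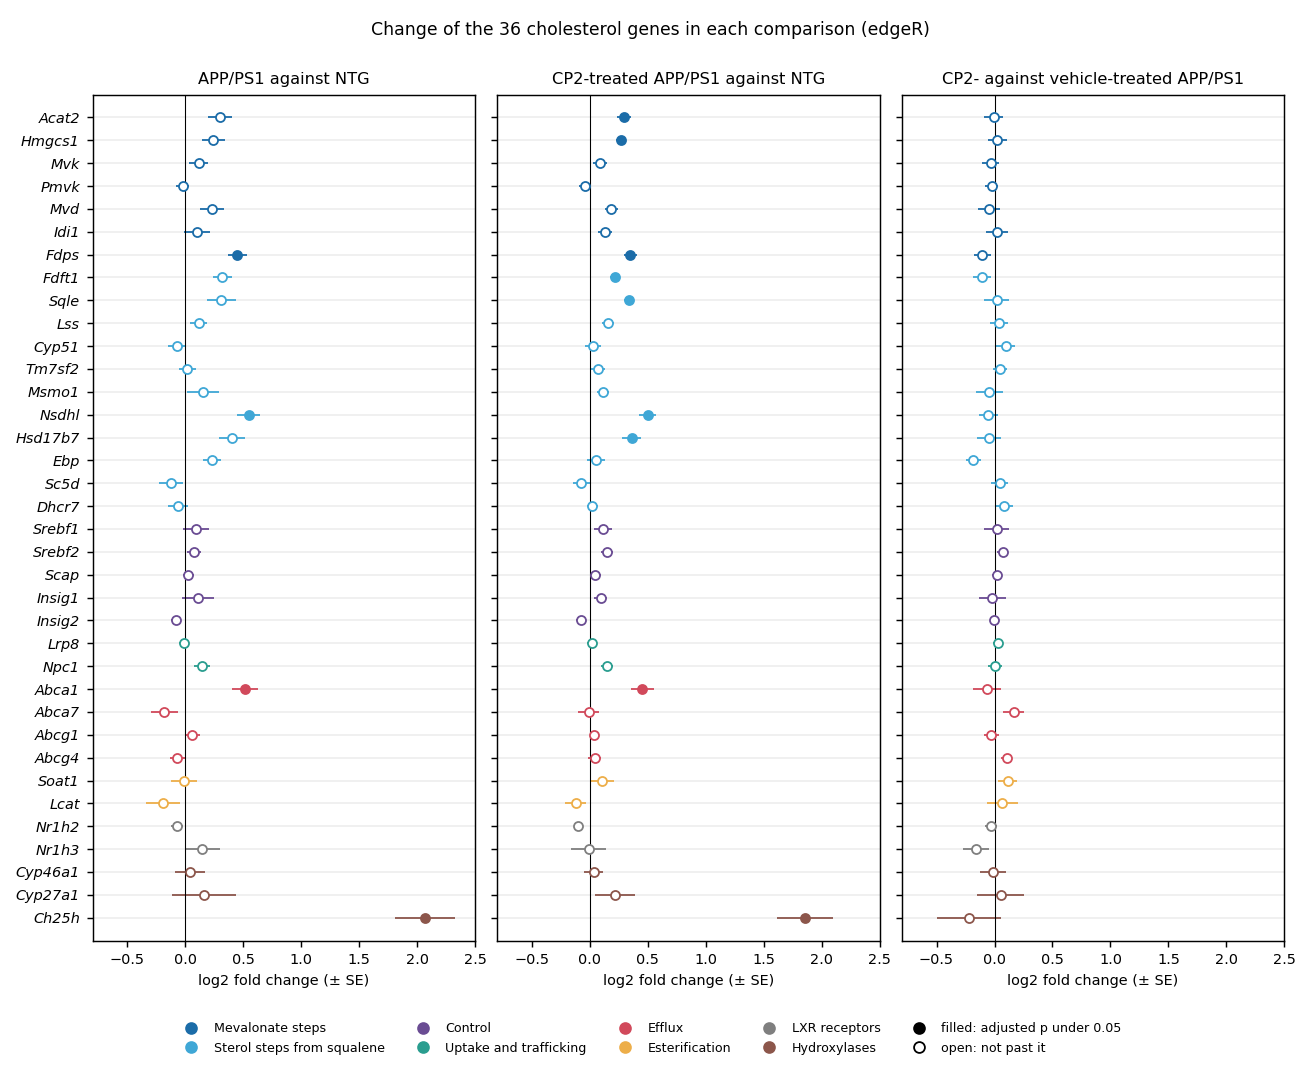
Log2 fold change ± SE of each of the 36 genes in 3 comparisons, from edgeR (4 NTG, 5 APP/PS1 and 5 CP2-treated APP/PS1 mice), coloured by role. Filled points have an adjusted p under 0.05: 4 genes in APP/PS1 against NTG mice, 9 in CP2-treated APP/PS1 against NTG mice and 0 for CP2 against vehicle in APP/PS1 mice.

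Of the 7 genes of the mevalonate steps, 1 rose in APP/PS1 mice and 3 in CP2-treated APP/PS1 mice, where 4.34% and 4.56% of all genes rose. Their median log2 fold changes were 0.23 and 0.18, where the medians of all genes tested were -0.0042 and -0.0015. Fdps, which makes farnesyl diphosphate and lies at chr3:89093592-89101967 (mm10, minus strand), was the gene that rose in both. NTG mice 7 to 10 had 35.5, 37.9, 38.4 and 40.1 CPM of Fdps. APP/PS1 mice 16 to 20 had 42.6, 51.4, 58.8, 50.7 and 54.4 CPM, and CP2-treated mice 21 to 25 had 50.7, 50.5, 47.9, 46.2 and 44.6 CPM. No transgenic mouse overlapped the NTG range, and mouse 16 was the lowest of its group. Fdps rose by 0.45 on the log2 scale in APP/PS1 mice (SE 0.08, 1.37-fold, edgeR adjusted p = 0.0118) and by 0.35 in CP2-treated mice (SE 0.05, 1.27-fold, edgeR adjusted p = 0.00287).

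Hmgcs1 had 229, 247, 223 and 242 CPM in NTG mice, 225, 252, 299, 284 and 323 CPM in APP/PS1 mice, and 273, 271, 295, 294 and 276 CPM in CP2-treated mice. Mouse 16 fell inside the NTG range, and the other 4 APP/PS1 mice and all CP2-treated mice were above it. The log2 fold change of 0.24 in APP/PS1 mice did not pass (SE 0.10, edgeR adjusted p = 0.225) but passed without mouse 16 (0.31, edgeR adjusted p = 0.0325). It also passed in edgeR with the ribosomal RNA-like share as a covariate (0.44, adjusted p = 0.00974). In CP2-treated mice Hmgcs1 rose by 0.27 on the log2 scale (SE 0.05, 1.21-fold, edgeR adjusted p = 0.00557). Acat2, the cytosolic thiolase that joins acetyl-CoA units, had 32.4 to 38.4 CPM in NTG mice, 34.8, 44.4, 47.2, 50.3 and 42.9 CPM in APP/PS1 mice and 41.7, 45.3, 45.3, 45.2 and 40.9 CPM in CP2-treated mice. Again mouse 16 alone overlapped the NTG mice. The log2 fold change of Acat2 was 0.30 in APP/PS1 mice (SE 0.11, edgeR adjusted p = 0.155, and 0.0129 without mouse 16) and 0.29 in CP2-treated mice (SE 0.06, edgeR adjusted p = 0.0173). With all mice its APP/PS1 value passed with limma-voom (adjusted p = 0.0281).

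The other 4 mevalonate genes did not pass by edgeR in either comparison with all mice. Mvd, which forms isopentenyl diphosphate, had log2 fold changes of 0.23 in APP/PS1 mice (SE 0.10) and 0.18 in CP2-treated mice (SE 0.06), its APP/PS1 value passed without mouse 16 (edgeR adjusted p = 0.0427), and its CP2-treated value passed with DESeq2 (adjusted p = 0.0467). Idi1, the isomerase of isopentenyl diphosphate, had 0.10 (SE 0.11) and 0.13 (SE 0.06). The kinases Mvk and Pmvk had group means of 19.1, 20.6 and 20.1 CPM and of 29.5, 28.9 and 28.4 CPM in NTG, APP/PS1 and CP2-treated mice, and their groups overlapped.

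Of the 11 genes of the sterol steps from squalene, 1 rose in APP/PS1 mice and 4 in CP2-treated mice, where 4.34% and 4.56% of all genes rose. Their median log2 fold changes were 0.15 and 0.11. Nsdhl, an enzyme of sterol demethylation at chrX:72918557-72958514 (mm10, plus strand), had the highest fold change of the synthesis genes in both comparisons. NTG mice had 17.3, 17.5, 16.6 and 20 CPM of Nsdhl. APP/PS1 mice had 20.9, 26.3, 28.4, 25.8 and 28.4 CPM, and CP2-treated mice had 26.1, 24.4, 25.4, 26.9 and 22.2 CPM. All transgenic mice lay above all NTG mice, with mouse 16 closest to them. Nsdhl rose by 0.55 on the log2 scale in APP/PS1 mice (SE 0.10, 1.46-fold, edgeR adjusted p = 0.00914) and by 0.50 in CP2-treated mice (SE 0.07, 1.41-fold, edgeR adjusted p = 0.00203).

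Hsd17b7, the 3-ketosteroid reductase that works with Nsdhl, had 20.6, 20.04, 17.6 and 18.3 CPM in NTG mice, 21.3, 21.9, 29.4, 24.3 and 28.9 CPM in APP/PS1 mice and 24.5, 21.1, 28.1, 25.5 and 22.6 CPM in CP2-treated mice. The groups did not overlap the NTG mice, but the nearest transgenic mice were less than 1 CPM above them. The log2 fold change was 0.40 in APP/PS1 mice (SE 0.11, edgeR adjusted p = 0.0671, and 0.0189 without mouse 16). With all mice it passed there with DESeq2 (adjusted p = 0.00959) and limma-voom (adjusted p = 0.0182). It also passed in edgeR with all 3 groups in one fit (adjusted p = 0.0323) and with the ribosomal RNA-like covariate (adjusted p = 0.0134). In CP2-treated mice the log2 fold change was 0.36 (SE 0.08, edgeR adjusted p = 0.0286). That call was lost without NTG mouse 8, 9 or 10 or without CP2-treated mouse 21 or 24 (edgeR adjusted p = 0.0532, 0.0891, 0.0859, 0.0679 and 0.0696).

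Sqle, squalene epoxidase and a rate-limiting step, had 65.5, 63.9, 61.6 and 66.8 CPM in NTG mice. It had 56.6, 76.3, 91.1, 83.8 and 89.4 CPM in APP/PS1 mice and 80.7, 78.4, 80.9, 83.7 and 79.0 CPM in CP2-treated mice. Mouse 16 was below every NTG mouse, whereas the other 9 transgenic mice were above them. For Sqle the log2 fold change was 0.31 in APP/PS1 mice (SE 0.12, edgeR adjusted p = 0.210, and 0.00225 without mouse 16) and 0.33 in CP2-treated mice (SE 0.04, edgeR adjusted p = 0.000688). With all mice its APP/PS1 value passed with limma-voom (adjusted p = 0.0192).

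Fdft1, squalene synthase, could not be separated from a neighbour. It shares 767 of its 2860 bases of exon (26.8%) with Ctsb, which encodes the lysosomal protease cathepsin B on the opposite strand, reads were counted on each gene they overlapped, and the library kit (TruSeq RNA v2) does not mark strand. Ctsb stood at 566, 787 and 695 CPM on average in NTG, APP/PS1 and CP2-treated mice, against 88.3, 109 and 102 CPM for Fdft1. Ctsb itself rose by 0.48 on the log2 scale in APP/PS1 mice (SE 0.06, edgeR adjusted p = 0.00161) and by 0.31 in CP2-treated mice (SE 0.06, edgeR adjusted p = 0.0119). The counts listed for Fdft1 rose by 0.22 in CP2-treated mice (SE 0.04, edgeR adjusted p = 0.0112, and 0.0501 without NTG mouse 10). In APP/PS1 mice the value was 0.32 (SE 0.08, edgeR adjusted p = 0.0576, and 0.000439 without mouse 16). With all mice it passed there with DESeq2 (adjusted p = 0.00639) and limma-voom (adjusted p = 0.0030). It also passed in edgeR with all 3 groups in one fit (adjusted p = 0.0152) and with the ribosomal RNA-like covariate (adjusted p = 0.0209). How much of this belongs to each gene cannot be told apart in these counts.

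The other 7 genes of the sterol steps did not pass by edgeR with all mice. Ebp, the sterol isomerase encoded on the X chromosome, had a log2 fold change of 0.23 in APP/PS1 mice (SE 0.07, edgeR adjusted p = 0.117) and 0.05 in CP2-treated mice (SE 0.08, edgeR adjusted p = 0.772). Lss, which closes squalene epoxide to lanosterol, had 0.11 (SE 0.08) and 0.16 (SE 0.05). In APP/PS1 mice Ebp passed with DESeq2 (adjusted p = 0.0366) and limma-voom (adjusted p = 0.0231), and Lss passed in edgeR with the ribosomal RNA-like share as a covariate (adjusted p = 0.0457). The groups overlapped for Cyp51, Msmo1, Tm7sf2, Sc5d and Dhcr7, which remove methyl groups or form or reduce double bonds. Their mean levels in NTG, APP/PS1 and CP2-treated mice were 62.5, 59.1 and 63.2 CPM for Cyp51 and 77.7, 85.8 and 83.3 CPM for Msmo1. They were 19.9, 20 and 20.7 CPM for Tm7sf2, 45.2, 41.3 and 42.6 CPM for Sc5d, and 31.2, 29.7 and 31.4 CPM for Dhcr7. Tm7sf2 shares 15.3% of its exon bases with Vps51.

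**Figure D3:**
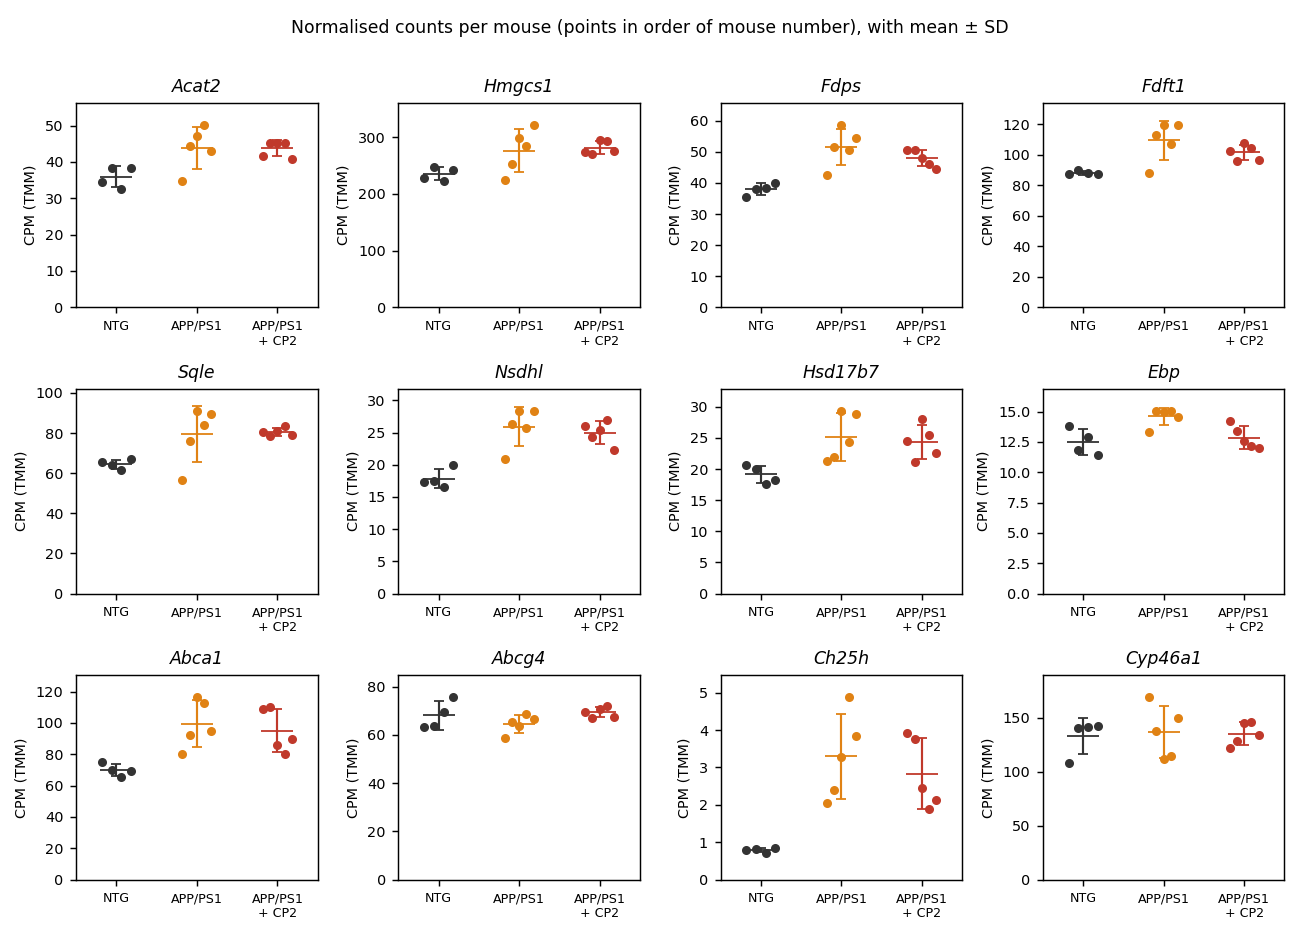
CPM (with TMM factors) of 12 of the genes in each of 4 NTG, 5 APP/PS1 and 5 CP2-treated APP/PS1 mice, 1 point per mouse in order of mouse number, with mean ± SD. Fdps, Nsdhl, Hsd17b7, Abca1 and Ch25h have no APP/PS1 mouse inside the NTG range, and the first APP/PS1 point in each panel is mouse 16.

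RefSeq promoters (GRCm38.p6, 250 bases before to 50 after each start site) were searched for short words that known activators of synthesis genes bind. Promoters were found for 30 of the 36 members, 15 of them synthesis genes. None was found for the synthesis genes Fdps, Fdft1 and Sqle, which all rose in CP2-treated against NTG mice. Some genes had several windows, and a gene was counted when any of its windows held the word. The NF-Y word CCAAT, on either strand, was found for 14 of the 15 synthesis genes (93.3%) and 9 of the 15 other members (60%). Of 27025 genes, 41.1% had it. Acat2, which rose in CP2-treated against NTG mice, was the synthesis gene without it. The sterol regulatory element form TCACNCCAC was in 1 of the 15 (Hmgcs1, bases -137 to -129) and in none of the other members, where 1.44% of all genes had it. The E-box word CACGTG was in 3 of 15 in each set, where 8.09% of all genes had it. No match of 1 word overlapped a match of another in the members. Matches describe the letters in these windows and are not measured binding sites.

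The 250 bases upstream of 4 synthesis genes are shown beside those of Abca1 and Ch25h, the 2 members outside synthesis that rose. Capitals mark CCAAT, its complement ATTGG and, in Hmgcs1, the sterol regulatory element word, and each sequence runs 5′ to 3′ on the strand of the gene. The windows are chr13:119690101-119690350 (plus strand) for Hmgcs1, chr5:114444019-114444268 (plus) for Mvk, chr8:122443423-122443672 (minus) for Mvd, chrX:72918271-72918520 (plus) for Nsdhl, chr4:53159896-53160145 (minus) for Abca1 and chr19:34475149-34475398 (minus) for Ch25h.
Hmgcs1: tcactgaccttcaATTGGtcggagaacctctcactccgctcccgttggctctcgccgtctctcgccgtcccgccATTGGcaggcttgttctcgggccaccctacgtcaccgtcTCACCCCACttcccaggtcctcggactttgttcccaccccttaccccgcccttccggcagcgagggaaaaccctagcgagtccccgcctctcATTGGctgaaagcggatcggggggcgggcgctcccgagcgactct
Mvk: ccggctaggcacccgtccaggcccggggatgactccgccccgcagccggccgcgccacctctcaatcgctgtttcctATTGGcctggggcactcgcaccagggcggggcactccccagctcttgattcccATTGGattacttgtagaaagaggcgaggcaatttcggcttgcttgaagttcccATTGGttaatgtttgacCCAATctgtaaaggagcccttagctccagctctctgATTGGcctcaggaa
Mvd: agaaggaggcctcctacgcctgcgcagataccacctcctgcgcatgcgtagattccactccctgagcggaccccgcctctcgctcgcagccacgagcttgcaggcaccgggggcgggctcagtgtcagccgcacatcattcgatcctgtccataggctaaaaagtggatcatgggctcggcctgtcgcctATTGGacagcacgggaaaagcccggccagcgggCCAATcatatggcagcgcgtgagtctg
Nsdhl: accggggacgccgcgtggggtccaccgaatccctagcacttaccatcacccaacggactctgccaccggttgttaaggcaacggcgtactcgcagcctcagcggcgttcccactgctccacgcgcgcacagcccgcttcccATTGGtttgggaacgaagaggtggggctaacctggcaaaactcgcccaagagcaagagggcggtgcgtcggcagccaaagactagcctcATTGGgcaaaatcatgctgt
Abca1: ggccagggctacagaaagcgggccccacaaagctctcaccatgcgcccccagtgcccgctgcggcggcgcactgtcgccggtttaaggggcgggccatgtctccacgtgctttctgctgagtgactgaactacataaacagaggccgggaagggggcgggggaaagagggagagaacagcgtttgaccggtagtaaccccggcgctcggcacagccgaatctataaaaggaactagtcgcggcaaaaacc
Ch25h: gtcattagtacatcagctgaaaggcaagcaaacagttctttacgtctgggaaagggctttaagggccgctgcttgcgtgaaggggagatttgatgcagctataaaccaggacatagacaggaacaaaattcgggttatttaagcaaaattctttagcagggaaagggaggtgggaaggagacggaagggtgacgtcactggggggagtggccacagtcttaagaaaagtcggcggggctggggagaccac
With the 50 bases after the start site included, Mvk, which did not pass in any comparison, held 5 NF-Y words, Hmgcs1 and Nsdhl held 4 each and Mvd held 2. Abca1 and Ch25h held 0 NF-Y words.

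The genes that control synthesis did not pass in either comparison. Srebf2 had 222 ± 14.4 CPM in NTG mice (SD, n = 4), 232 ± 13.0 CPM in APP/PS1 mice (n = 5) and 243 ± 8.73 CPM in CP2-treated mice (n = 5). Its log2 fold change was 0.07 (SE 0.06) and 0.15 (SE 0.05, edgeR adjusted p = 0.125). Srebf1, the paralog better known for fatty acid genes, had 94.8, 100 and 102 CPM on average. Scap, which escorts SREBPs to the Golgi, had 93.9, 94.9 and 96.2 CPM and shares 23% of its exon bases with 5830462I19Rik on the opposite strand. Insig1 and Insig2, which hold Scap in the endoplasmic reticulum, had 82.4, 88.2 and 87.2 CPM and 43.8, 41.2 and 41.1 CPM. The median log2 fold change of the 5 was 0.07 in APP/PS1 and 0.09 in CP2-treated mice. All 5 overlapped between groups in both comparisons.

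The 2 members of uptake and trafficking also did not pass. Lrp8, an apolipoprotein E and reelin receptor, had 73.7 ± 2.09, 72.5 ± 2.58 and 73.8 ± 1.70 CPM in the 3 groups. Npc1, which moves cholesterol out of lysosomes, had 88.2, 86.6, 82.5 and 89.0 CPM in NTG mice, 83.8, 91.9, 104, 99.8 and 95.8 CPM in APP/PS1 mice and 105, 95.96, 94.97, 89.4 and 91.2 CPM in CP2-treated mice. All CP2-treated mice were above the NTG mice, the nearest by under 1 CPM, and mouse 16 was inside their range. For Npc1 the log2 fold change was 0.14 in APP/PS1 mice (SE 0.07, edgeR adjusted p = 0.282) and 0.15 in CP2-treated mice (SE 0.05, edgeR adjusted p = 0.133).

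Among the 4 exporters, Abca1 rose in both comparisons and the other 3 passed in neither. Abca1 loads cholesterol onto apolipoproteins and lies at chr4:53030787-53159895 (mm10, minus strand). NTG mice had 74.9, 70.1, 65.8 and 69.5 CPM of Abca1, APP/PS1 mice 80.2, 92.5, 117, 113 and 95.1 CPM, and CP2-treated mice 109, 110, 85.9, 79.9 and 89.9 CPM. All transgenic mice were above all NTG mice, with mouse 16 and CP2-treated mouse 24 nearest. Abca1 rose by 0.51 on the log2 scale in APP/PS1 mice (SE 0.11, 1.43-fold, edgeR adjusted p = 0.0202) and by 0.45 in CP2-treated mice (SE 0.10, 1.37-fold, edgeR adjusted p = 0.0209). The first call was lost without NTG mouse 8 or 9 (edgeR adjusted p = 0.0553 and 0.0758) and the second without NTG mouse 8, 9 or 10 (edgeR adjusted p = 0.0562, 0.0712 and 0.0610), with log2 fold changes between 0.42 and 0.52.

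Abcg1 and Abcg4, which pass sterol to lipoprotein particles, had mean levels of 64.7, 67.3 and 65.9 CPM and of 68.0, 64.5 and 69.3 CPM in NTG, APP/PS1 and CP2-treated mice. Abca7, a relative of Abca1, had 28.8, 25.2 and 28.3 CPM. In APP/PS1 mice it ranged from 19.7 CPM in mouse 16 to 27.8 CPM, and in NTG mice from 25.2 to 33.5 CPM, so the groups overlapped. The storage gene Soat1, which esterifies cholesterol inside cells, had 39.6 ± 6.28, 39.1 ± 3.62 and 42.3 ± 3.96 CPM. Lcat, which esterifies it on lipoproteins, had 21.1 ± 2.251, 18.3 ± 3.61 and 19.2 ± 1.87 CPM, with mouse 16 the lowest at 12.9 CPM.

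The oxysterol receptors, through which Abca1 is known to be induced, did not pass. Nr1h2 (LXR beta) had 46.2, 45.7, 46.9 and 46.8 CPM in NTG mice and 43.2, 44.7, 40.7, 42.3 and 43.8 CPM in CP2-treated mice, which all lay below them. Its log2 fold change there was -0.10 (SE 0.04, edgeR adjusted p = 0.210), and in APP/PS1 mice it was -0.07 (SE 0.05). Groups lay apart in the lower direction for 3.61% of all genes in the comparison of CP2-treated with NTG mice. Nr1h3 had 2.88 to 4.75 CPM in NTG mice, 3.61 to 4.51 CPM in APP/PS1 mice and 3.01 to 4.05 CPM in CP2-treated mice.

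Ch25h had the largest fold change of the 36 members in both comparisons against NTG mice. It makes 25-hydroxycholesterol, an oxysterol that holds back SREBP processing, it is known from macrophages and microglia, and its gene lies at chr19:34473786-34475135 (mm10, minus strand). NTG mice had 0.795, 0.818, 0.708 and 0.835 CPM. APP/PS1 mice had 2.06, 2.40, 3.28, 4.89 and 3.84 CPM, and CP2-treated mice 3.93, 3.76, 2.44, 1.89 and 2.14 CPM. Each transgenic mouse had more than any NTG mouse. Since no NTG mouse reached 1 CPM, Ch25h entered these tests only through the groups where it was high. It also passed by edgeR without the filter and with a minimum of 10 counts in every mouse, in both comparisons. Ch25h rose by 2.07 on the log2 scale in APP/PS1 mice (SE 0.26, 4.20-fold, edgeR adjusted p = 0.00128) and by 1.85 in CP2-treated mice (SE 0.24, 3.61-fold, edgeR adjusted p = 0.00122). The call was kept whichever of the 9 mice was left out, in both comparisons. Ch25h shares 11.8% of its exon bases with Gm26902 on the opposite strand, which had 1.65, 2.217 and 2.16 CPM on average. Gm26902 did not pass with all mice, but passed in APP/PS1 mice without mouse 16 (log2 fold change 0.58, edgeR adjusted p = 0.0408). Its values in CP2-treated mice lay wholly above the NTG range, where 6% of all genes did.

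The other 2 hydroxylases did not pass. Cyp46a1 had 109, 141, 142 and 143 CPM in NTG mice, 170, 138, 112, 115 and 150 CPM in APP/PS1 mice and 122, 129, 145, 147 and 134 CPM in CP2-treated mice. The spread within each group was larger than the distance between the group means of 133, 137 and 135 CPM. Cyp27a1, the 27-hydroxylase, ranged from 5.86 to 11.1 CPM in NTG mice, from 4.60 to 11.2 CPM in APP/PS1 mice and from 7.84 to 10.05 CPM in CP2-treated mice. Its fold change in CP2-treated mice passed only in the fit without NTG mouse 7, which had the highest NTG value.

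Synthesis and the group of efflux and storage genes were then set side by side in each mouse, as the mean over the genes of log2 CPM minus the NTG mean. The synthesis mean was -0.01, 0.03, -0.04 and 0.02 in NTG mice. It was -0.09 in APP/PS1 mouse 16 and 0.09, 0.31, 0.23 and 0.27 in mice 17 to 20, and 0.16, 0.14, 0.21, 0.17 and 0.10 in CP2-treated mice. Mouse 16 was below the NTG mice, and the other 9 transgenic mice were above them. The mean of the 6 efflux and storage genes was 0.03, -0.04, -0.06 and 0.07 in NTG mice and -0.21, 0.02, 0.06, 0.10 and 0.06 in APP/PS1 mice. In CP2-treated mice it was 0.13, 0.10, 0.02, -0.00 and 0.11, and all groups overlapped.

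By gene, 2 of 18 synthesis genes and 1 of 6 efflux and storage genes rose in APP/PS1 mice (median log2 fold changes 0.19 and -0.04). In CP2-treated mice 7 of 18 and 1 of 6 rose (medians 0.14 and 0.04), and without mouse 16 the APP/PS1 counts were 8 of 18 and 1 of 6 (medians 0.26 and -0.01). Over all genes 4.34%, 4.56% and 6.62% rose in these fits. The 7 and the 8 include Fdft1, whose counts cannot be separated from those of Ctsb. Of the 7, only Fdps and Nsdhl passed with all 3 groups in one fit, where 4.28% of all genes passed in either direction. In APP/PS1 mice the same fit added Fdft1 and Hsd17b7 to the 2 synthesis genes, where 7.9% of all genes passed. The synthesis mean exceeded the efflux and storage mean by 0.07 to 0.24 in APP/PS1 mice and by -0.01 to 0.19 in CP2-treated mice, against -0.05 to 0.07 in NTG mice. In mouse 16 the difference was 0.12, with both of its means below those of all NTG mice. The lowest APP/PS1 difference (0.0702) was barely above the highest in NTG mice (0.0683). No test was made of these means, since the genes of a list are not replicates.

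**Figure D4:**
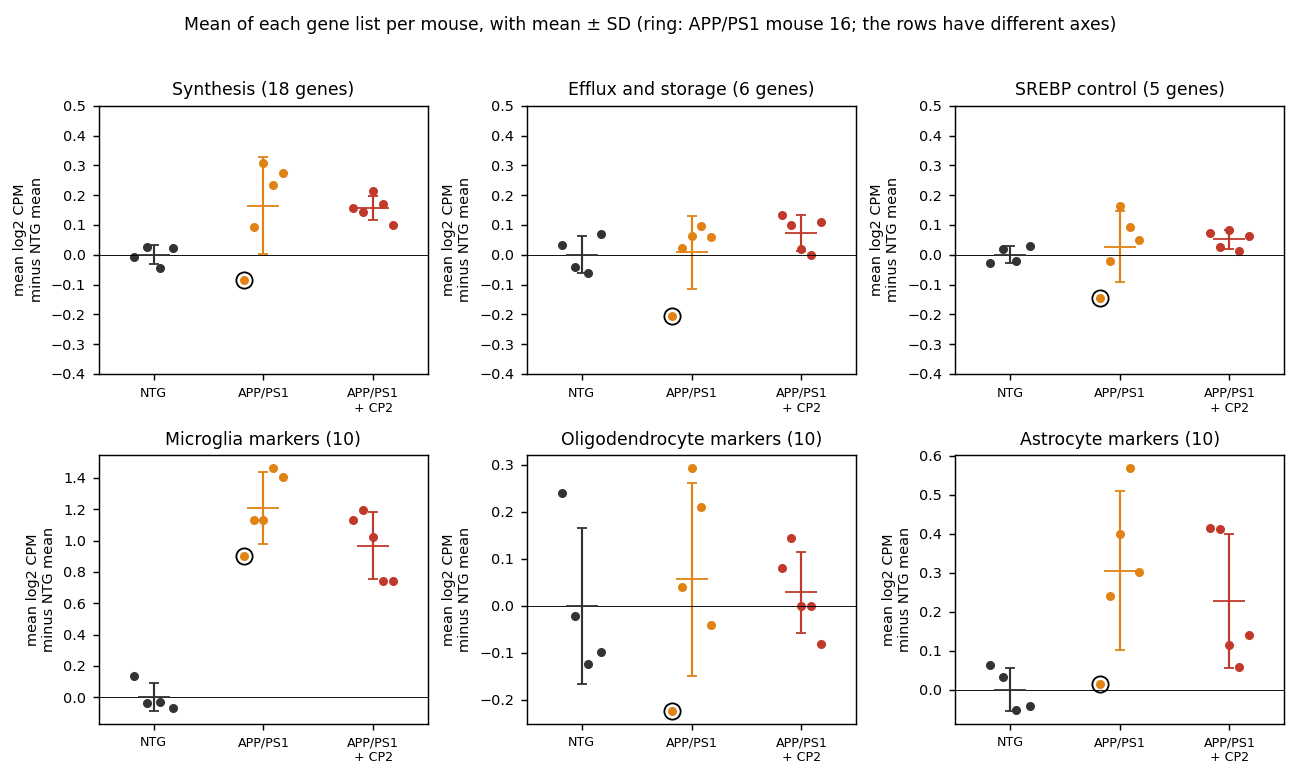
Mean over the genes of each list of log2 CPM minus the NTG mean (log2 units), 1 point per mouse with mean ± SD, for 4 NTG, 5 APP/PS1 and 5 CP2-treated APP/PS1 mice; the axes of the marker panels differ. APP/PS1 mouse 16 (ringed) lies at -0.09 for synthesis, below the NTG mice, and the microglia markers lie at 0.74 or more in all 10 transgenic mice.

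Of the marker lists, only that of microglia lay wholly above the NTG mice in both transgenic groups. Over all genes, 4.34% rose and 1.34% fell in APP/PS1 mice, and 4.56% and 1.46% in CP2-treated mice. All 10 microglia markers rose in APP/PS1 mice, with a median log2 fold change of 1.22, and 8 of 10 rose in CP2-treated mice. Their summed level was 426 to 449 CPM in NTG mice, 840 to 1249 CPM in APP/PS1 mice and 726 to 1056 CPM in CP2-treated mice, so neither transgenic group overlapped the NTG mice, as for Fdps, Nsdhl, Hsd17b7, Abca1 and Ch25h. Of 10 astrocyte markers 2 rose and 2 fell in APP/PS1 mice and 3 rose and 3 fell in CP2-treated mice, and their summed level was 4801 to 5365 CPM in NTG mice, 5127 to 6869 CPM in APP/PS1 mice and 5210 to 6356 CPM in CP2-treated mice. Of 10 markers of oligodendrocytes, cells that make much cholesterol for myelin, 1 rose in APP/PS1 and 1 in CP2-treated mice. Their sums of 5568 to 7989, 5032 to 7506 and 5750 to 6478 CPM overlapped. Of 6 endothelium markers 1 rose in APP/PS1 and 3 in CP2-treated mice, and the sums of 171 to 188, 161 to 237 and 180 to 205 CPM overlapped. Of 8 neuron markers 0 passed in either comparison, and the sums of 6056 to 6928, 5796 to 7072 and 6108 to 6893 CPM overlapped. Choroid plexus markers also had 0 calls, and their sums varied widely within groups (21.7 to 956, 27.6 to 1365 and 190 to 749 CPM). No marker of these lists was at 0 counts in any mouse. The part of these markers in the members' results was not tested.

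The comparison of CP2 with vehicle in APP/PS1 mice asked whether the drug changed these genes. By edgeR 0 of 36 members passed in this comparison, as did 0 by DESeq2 and 0 by limma-voom, where 0.00609% of the 16407 genes tested passed by edgeR. At an unadjusted p under 0.05 there were 2 members, 1 higher and 1 lower on CP2, where 6.55% of all genes passed (2.88% higher and 3.66% lower), so the share of members was no larger than that of all genes. Without mouse 16 there were 0 higher and 3 lower, and with the ribosomal RNA-like share as a covariate 0 higher and 5 lower. The share of all genes at this unadjusted p was not computed for these fits, and 0 members passed adjustment in them. Of the 18 synthesis genes, 10 had a log2 fold change under 0 with all mice, 14 without mouse 16 and 17 with the covariate. Over all genes, 47.5% were above 0 with all mice. The medians of all genes were -0.0060, -0.00055 and -0.0019 in the 3 fits, and those of synthesis genes -0.016, -0.078 and -0.12. The ranges of 0 members lay apart, where 0.549% of all genes lay wholly higher and 0.591% wholly lower. Ebp was the 1 with a lower value on CP2. Vehicle-treated APP/PS1 mice had 13.3, 15.1, 15.0, 15.0 and 14.6 CPM of Ebp, CP2-treated mice 14.2, 13.4, 12.6, 12.1 and 11.97 CPM, and NTG mice 13.8, 11.9, 12.9 and 11.5 CPM. Mouse 16 lay among the CP2-treated mice, and the other 4 vehicle-treated mice were above all of them. The log2 fold change of Ebp was -0.18 (95% interval -0.32 to -0.04, edgeR adjusted p = 0.744).

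Abcg4 was the 1 with a higher value. APP/PS1 mice on vehicle had 58.7, 65.2, 63.7, 68.6 and 66.4 CPM, and those on CP2 had 69.3, 67.1, 70.8, 72.0 and 67.5 CPM. The highest vehicle-treated mouse lay inside the CP2-treated range, and NTG mice had 63.3 to 75.7 CPM. The log2 fold change was 0.10 (95% interval 0.003 to 0.21, edgeR adjusted p = 0.744). Without mouse 16, the lowest on vehicle, it was 0.07 and no longer had an unadjusted p under 0.05. For the 9 members that rose in CP2-treated mice against NTG mice, the 95% intervals of the difference between CP2 and vehicle within APP/PS1 mice all included 0. They ran from -0.27 to 0.06 for Fdps, from -0.24 to 0.13 for Nsdhl, from -0.33 to 0.20 for Abca1 and from -0.82 to 0.39 for Ch25h. For Hmgcs1 the interval was -0.16 to 0.21, for Acat2 -0.19 to 0.18 and for Sqle -0.22 to 0.26. For Fdft1 it was -0.28 to 0.06 and for Hsd17b7 -0.28 to 0.18. Differences within these bounds are not excluded, and the data do not show that the groups were alike.

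Other genes of the pathway were read from a further list of 36, of which 35 were tested. In APP/PS1 mice 6 of the 35 rose (17.1%) and 0 fell, with a median log2 fold change of 0.18, where 4.34% of all genes rose. In CP2-treated mice 9 rose (25.7%) and 0 fell, with a median of 0.11, where 4.56% of all genes rose. Without mouse 16, 12 of the 35 rose in APP/PS1 mice, where 6.62% of all genes did. None passed between CP2 and vehicle within APP/PS1 mice by edgeR. An unadjusted p under 0.05 was found for 3 (8.57%, 1 higher and 2 lower), near the 6.55% of all genes. Without mouse 16 there were 0 higher and 5 lower, and the share of all genes at this unadjusted p was not computed for that fit. Cyb5r3, Npc2 and Clu were among the 4 with the smallest p in APP/PS1 mice. Cyb5r3, a reductase that feeds electrons to sterol demethylation and desaturation, had 51.3 ± 2.70 CPM in NTG mice, 68.5 ± 3.51 CPM in APP/PS1 mice and 63.0 ± 3.85 CPM in CP2-treated mice. Its log2 fold changes against NTG mice were 0.42 (SE 0.06, edgeR adjusted p = 0.00161) and 0.31 (SE 0.06, edgeR adjusted p = 0.0106).

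Npc2, the lysosomal partner of Npc1, had 58.5 ± 5.31, 95.4 ± 13.2 and 83.9 ± 10.9 CPM in the 3 groups. Its log2 fold changes were 0.71 (SE 0.11, edgeR adjusted p = 0.00416) and 0.53 (SE 0.10, edgeR adjusted p = 0.00792). Clu, a brain apolipoprotein, had 672 ± 33.9, 868 ± 95.95 and 799 ± 77.8 CPM and passed in APP/PS1 mice (edgeR adjusted p = 0.0332) but not in CP2-treated mice (edgeR adjusted p = 0.0617). The APP/PS1 call of Clu held in 2 of 9 fits with 1 mouse left out, with an adjusted p of up to 0.0960 in edgeR. For these 3 genes the APP/PS1 mice lay above the NTG mice without overlap.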

How the data were processed

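RNA was sequenced from 14 mice, each library from a separate animal, and the mice were grouped by the treatment and genotype given in the labels. Per the methods and the submitters' notes, reads were aligned to mm10 with TopHat and counted with featureCounts of Subread, which assigned reads to every gene they overlapped. The versions and the strand setting are not given in the sources used here. The deposited table holds raw read counts per gene for each mouse. It also holds RPKM, which the authors computed per gene length and library, and the gene length itself. The RPKM values were used for levels between genes only.

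Genes were kept where all mice of 1 or both groups had over 1 CPM, counts were scaled by TMM, and each pair of groups was tested with edgeR 4.0.16 (quasi-likelihood) in R 4.3.3, where the study used DESeq2. Benjamini-Hochberg adjustment ran over all genes tested, with calls at 0.05, two-sided. CPM used TMM factors over all 14 mice (0.953 to 1.03). Intervals are 95%. Alternatives used DESeq2 1.42.0, limma 3.58.1 (voom with sample weights), RLE and upper-quartile factors, no filter, at least 10 counts in every mouse, 1 fit of all 3 groups, and fits without each mouse. A fit with the share of ribosomal RNA-like counts was added after seeing the data. The edgeR script was tested on simulated data. Tables and plots used Python 3.11.15, numpy 2.4.6, pandas 2.3.3 and matplotlib 3.10.9.

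The members and lists were chosen with earlier results of these data known. All 36 members are given, those with an adjusted p under 0.05, or an unadjusted p under 0.05 for CP2 against vehicle in APP/PS1 mice, in full; of the other pathway genes, those among the 4 with the smallest p in APP/PS1 against NTG mice are named, except 1 that is not reported here. Promoter sequences come from RefSeq (GRCm38.p6). Exon bases shared with another gene were found for 8 members.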

Additional observations from a re-analysis of the deposited data

Results flagged for a closer look

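Within groups of 4 or 5 mice, 8 of 108 values tested by Dixon's criterion had a highest or lowest mouse that stood apart, and chance alone sets apart about 1 in 20 groups. Pmvk was lowest in NTG mouse 8 at 28.1 CPM, with the other NTG mice at 29.9 to 30.2 CPM, and lowest in APP/PS1 mouse 16 at 25.6 CPM, with the others at 29.2 to 30.1 CPM. Ebp was also lowest in APP/PS1 mouse 16, at 13.3 CPM against 14.6 to 15.1 CPM. Tm7sf2 was highest in CP2-treated mouse 25 at 22.2 CPM, against 19.99 to 20.6 CPM. In CP2-treated mouse 23 Insig1 was highest at 95.9 CPM, against 82.6 to 86.3 CPM, and Lrp8 was lowest at 70.9 CPM, against 74.1 to 75.2 CPM. Dhcr7 was highest in NTG mouse 10 at 33.6 CPM, against 30.4 to 30.5 CPM. Cyp46a1 was lowest in NTG mouse 7 at 109 CPM, against 141 to 143 CPM.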

How the results depend on the processing

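Against NTG mice, the 4 members called in APP/PS1 mice became 7 with DESeq2, 9 with limma-voom, 6 with all 3 groups in one fit and 8 with the ribosomal RNA-like share as a covariate. Of all genes, 10.2%, 9.52%, 7.9% and 4.39% were called in these fits, against 5.68% in the main fit. The 4 members became 3 to 10 when 1 mouse was left out, with 10 without APP/PS1 mouse 16. Between 3.51% and 8.92% of all genes were called in those fits. The covariate also gave 18 members at an unadjusted p under 0.05 (against 10) and a synthesis median of 0.34 (against 0.19). With it the share of all genes at that unadjusted p was not computed, and the median of all genes was -0.0071 (against -0.0042). The 9 members called in CP2-treated mice became 4 with all 3 groups in one fit and 6 to 10 when 1 mouse was left out. Of all genes, 6.02% were called in the main fit, 4.28% in the one fit and 3.47% to 6.8% with 1 mouse left out. For CP2 against vehicle in APP/PS1 mice, the 2 members at an unadjusted p under 0.05 became 1 with upper-quartile factors, no filter or all 3 groups in one fit, 5 with the covariate, and 1 to 3 when 1 mouse was left out. The cause was not tested for any of these. Log2 fold changes near 0 changed sign in this comparison: Hmgcs1 with limma-voom (-0.014), with the covariate (-0.12) and with 1 mouse left out (-0.039 to 0.089), Sqle likewise (-0.036, -0.13 and -0.079 to 0.071), and Acat2 (-0.079 to 0.049) and Hsd17b7 (-0.10 to 0.012) with 1 mouse left out. Against NTG mice, Ebp in CP2-treated mice ran from -0.0023 to 0.11 with 1 mouse left out. Over all genes, the calls in APP/PS1 against NTG mice went from 932 to 1667 with DESeq2 and 1563 with limma-voom. They went to 720 with the covariate, 1474 without APP/PS1 mouse 16 and 578 without NTG mouse 9. In CP2-treated against NTG mice they went from 989 to 1670 with DESeq2 and 572 without NTG mouse 9, and for CP2 against vehicle in APP/PS1 mice from 1 to 23 with DESeq2. With 4 or 5 mice a group, small differences could not be resolved, and Ch25h rests on few counts. No paired analysis was possible because no mouse number occurs in more than 1 group.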
